A study of Mus musculus with 88 samples.

Results

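The change that Mtf2 null mouse embryonic stem (mES) cells underwent between the undifferentiated state and 48 h of mesoderm differentiation was measured by bulk RNA-seq in 4 libraries. The rule took the 2 libraries labelled Mtf2 null at 48 h and the 2 labelled Mtf2 null and undifferentiated from the mesoderm table, out of 24 libraries in that table and 88 samples in the series. The other mesoderm libraries came from WT and Jarid2 null cells, with 2 libraries for each of 3 genotypes at 4 times (undifferentiated, 5 h, 24 h and 48 h). The Mtf2 null line carries the Mtf2 GT/GT gene-trap allele, and the labels give the strain E14 for all lines. The WT libraries are E14 cells, so genotype and line of origin cannot be told apart where Mtf2 null cells are set against WT. All cells were kept in medium with serum and LIF (leukemia inhibitory factor, which holds mES cells in self-renewal), and the undifferentiated (UD) libraries were taken from that culture. The differentiating cells were moved to Activin A, BMP4, CHIR99021 and FGF2 for the first 24 h. CHIR99021 blocks the kinase GSK3 and so turns on Wnt signalling. After 24 h they received BMP4 with A-83-01, which blocks the Activin, Nodal and TGF-beta type I receptors. The methods give a wash before the first medium, do not say whether LIF was in these media, and describe an EED inhibitor for mesoderm experiments that the labels of these libraries do not name. No source gives separate cultures for the 2 libraries of a group, and the study calls them technical replicates, so p-values measure the spread between these libraries only.

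MTF2 is a Polycomb-like protein that guides Polycomb repressive complex 2 (PRC2), the enzyme that methylates histone H3 at lysine K27, to unmethylated CpG islands over silent developmental genes. During mesoderm formation in the embryo, Wnt, Nodal and BMP signals act on epiblast cells in turn. Nodal acts through SMAD2 and SMAD3 and switches on its own inhibitors Lefty1 and Lefty2. BMP acts through SMAD1, SMAD5 and SMAD9 and switches on the Id genes. Wnt acts through beta-catenin and the TCF/LEF factors, with Axin2, Sp5 and T among its targets, and LIF acts through STAT3, with Socs3 as a feedback inhibitor.

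The proximal promoters of 3 such target genes are shown because the levels of these genes are given below under LIF, Wnt and BMP signalling. No result below rests on the sequences. Each run holds the 250 bases before the gene's RefSeq start (GRCm38.p6), 5′ to 3′ on the strand of the gene, and the capitals mark 1 match to the motif named.
Socs3: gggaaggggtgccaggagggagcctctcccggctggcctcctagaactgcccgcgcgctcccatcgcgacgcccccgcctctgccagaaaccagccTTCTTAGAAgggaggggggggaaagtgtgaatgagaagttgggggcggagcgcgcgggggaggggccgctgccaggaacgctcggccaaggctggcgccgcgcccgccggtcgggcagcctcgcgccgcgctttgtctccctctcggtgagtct
Sp5: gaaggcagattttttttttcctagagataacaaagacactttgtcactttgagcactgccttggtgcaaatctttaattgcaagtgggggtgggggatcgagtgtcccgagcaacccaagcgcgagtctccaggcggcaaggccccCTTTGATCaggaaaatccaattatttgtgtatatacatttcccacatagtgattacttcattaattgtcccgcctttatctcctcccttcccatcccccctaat
Id2: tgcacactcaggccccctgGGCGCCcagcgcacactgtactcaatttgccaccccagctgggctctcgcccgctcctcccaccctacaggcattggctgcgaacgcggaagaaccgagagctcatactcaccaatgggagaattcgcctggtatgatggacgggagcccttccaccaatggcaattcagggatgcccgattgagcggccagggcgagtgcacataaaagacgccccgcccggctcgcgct
The Socs3 window (chr11:117969367-117969616, minus strand) holds TTCNNNGAA, the palindrome that STAT factors bind, at 154 bases before the start. The Sp5 window (chr2:70474673-70474922, plus strand) holds CTTTGATC, a TCF/LEF match, at 104 bases before the start. The Id2 window (chr12:25096093-25096342, minus strand) holds GGCGCC, a GC-rich SMAD match, at 231 bases before the start. Searched on both strands, TTCNNNGAA occurred in 7.02% of the 32851 promoter windows of this length, CTTTGATC in 0.801% and GGCGCC in 9.59%, so the first and the last are common words. A match is a description of the letters and not a measured site.

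The 4 libraries held 11144346 and 10963151 estimated counts in the UD pair and 10960217 and 12440559 in the 48 h pair. Levels are given below as CPM, counts per 1000000 counts after scaling of the library totals, always in the order of replicate 1 and replicate 2. Mtf2 itself was at 33.8 and 31.4 CPM in UD and at 30.2 and 33.7 CPM at 48 h, while the WT libraries were at 375 and 499 in UD and 292 and 206 at 48 h. The trapped line was thus low in every library and did not differ between the times beyond the spread (log2 fold change -0.03, not past the threshold). Mitochondrial transcripts took 1.84% and 1.47% of the UD counts and 0.942% and 0.981% of the 48 h counts.

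The mesoderm label of the 48 h libraries was checked against markers, with a mixed outcome. Mesp1, Hand2, Msgn1, Osr1 and Actc1, which mark nascent, lateral, paraxial, intermediate and cardiac mesoderm, had 0 counts in both Mtf2 null 48 h libraries, and none exceeded 0.196 CPM in the WT 48 h libraries. Kdr, the VEGF receptor of lateral mesoderm, was at 0.727 and 0.713 CPM, Tbx6 at 0.363 and 0.555 CPM, and Foxf1 at 0.545 and 0.0793 CPM. Of 30 markers of lateral plate and cardiac mesoderm, 10 were too low to test, 6 of the other 20 rose and no member fell. The summed level of that list was 114 and 131 CPM in UD and 238 and 215 CPM at 48 h. The summed level of 14 visceral and parietal endoderm markers, carried by abundant genes such as Apoe, Lama1 and Col4a1, was 3235 and 4044 CPM in UD and 6207 and 5989 CPM at 48 h, against 869 and 938 CPM in the WT 48 h libraries. Afp and Apoa1, markers of later visceral endoderm, were near 0. Other mesoderm markers, among them Hand1, Pdgfra and Gata4, were called higher, as given below. Since the markers thus went different ways, the cells are called Mtf2 null cells at 48 h of mesoderm conditions. The part of the endoderm markers in the other results was not tested. In bulk libraries, fewer cells of a type and less RNA per cell cannot be told apart.

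Over 48 h, 726 genes rose and 427 fell in Mtf2 null cells. The threshold was 0.001 for the adjusted p of edgeR's quasi-likelihood test together with a log2 fold change past 1 in either direction, and it called 6.28% of the 18361 genes tested, 3.95% as higher and 2.33% as lower. The median log2 fold change over all genes tested was 0.02. Among the called genes, 179 rose and 123 fell by more than 2 on the log2 scale, and 58 rose and 43 fell by more than 3. Protein-coding genes made up 697 of the 726 higher and 384 of the 427 lower genes, with 19 and 24 lncRNAs. Without UD replicate 1 the test called 684 genes, and without 48 h replicate 1 it called 743.

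**Figure D1:**
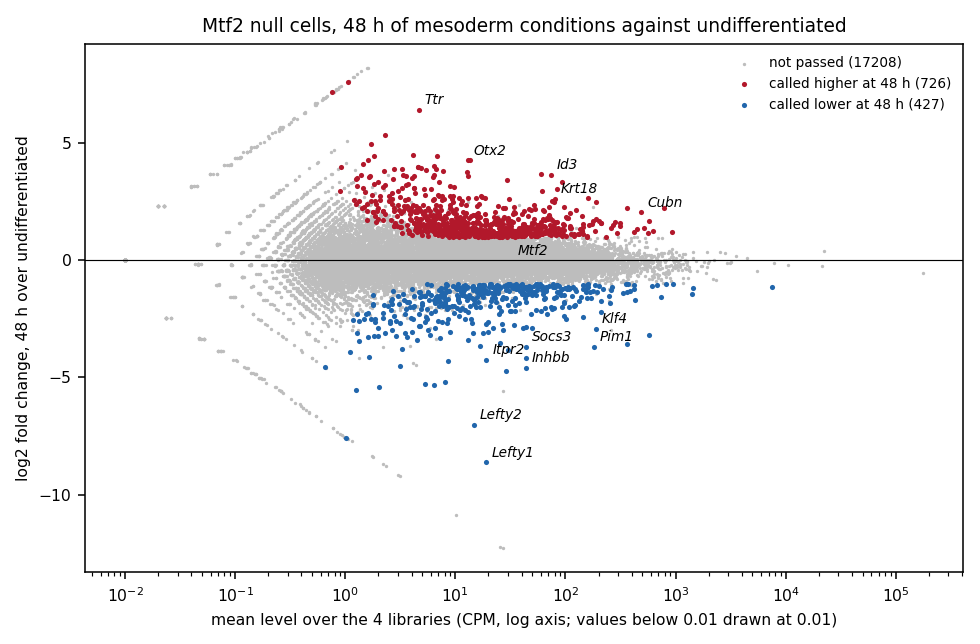
Each point is 1 of the 18361 genes tested, placed by its mean level over the 4 Mtf2 null libraries (CPM, log axis) and its log2 fold change at 48 h over undifferentiated. The 726 genes called higher lie above 0 (red) and the 427 called lower lie below 0 (blue), with Lefty1 and Lefty2 lowest among the named genes, Ttr highest and Mtf2 near 0.

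The 12 highest rises among genes that reached 5 CPM were led by Ttr, which carries thyroid hormone and retinol and is made by visceral endoderm and liver. Ttr had 2 counts over both UD libraries and 217 over both 48 h libraries, a ratio of 93.5 (exact 95% interval 25.6 to 777, counting error only). Several of the others encode transcription factors. Otx2, a factor of epiblast, anterior neural tissue and visceral endoderm, rose from 1.4 and 1.14 CPM to 24.0 and 25.4 CPM (log2 fold change 4.26, SE 0.29). Gata3, a factor of trophoblast and surface ectoderm, rose from 0.747 and 0.726 CPM to 11.5 and 12.8 CPM (4.03, SE 0.37). Hand1, a basic helix-loop-helix factor of lateral mesoderm and extraembryonic tissues, rose from 0.280 and 0.829 CPM to 9.72 and 7.69 CPM (3.97, SE 0.43). In each of them every 48 h library lay above every UD library. The UD and 48 h libraries did not overlap for any of the 1153 called genes, which are 6.28% of those tested. A call at this threshold all but requires this, so it adds no support here or for the genes below. The share of all tested genes without overlap was not computed.

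The remaining rises in that group came from the epithelial and secreted genes S100g, Tmprss2, Clic6 and Fgfbp1, and from Vrtn, Cxcl12, Zic2 and Pak6. S100g, a vitamin D-regulated calcium-binding protein, went from 0.280 and 0.415 CPM to 8.54 and 7.37 CPM (log2 fold change 4.49, SE 0.50). Tmprss2, a transmembrane serine protease, went from 0.373 and 0.829 CPM to 14.8 and 11.5 CPM (4.45, SE 0.44). Clic6, a chloride channel-like protein, went from 1.12 and 1.56 CPM to 28.4 and 23.4 CPM (4.27, SE 0.33). Their UD libraries held at most 1.56 CPM, so the folds rest on few UD counts. Cxcl12, the ligand of the receptor CXCR4, reached 4.27 and 6.18 CPM from 0.560 and 0.104 CPM. Zic2, a zinc finger factor of epiblast and neural plate, rose from 0.934 and 0.726 CPM to 11.7 and 13.1 CPM (3.88), and its neighbour Zic5, 9757 bases away on the opposite strand, rose too.

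The 12 largest falls were led by Lefty1 and Lefty2, the secreted Nodal inhibitors. Lefty1 (chr1:180935022-180938400, plus strand) was at 37.8 and 37.6 CPM in UD and at 0 and 0.159 CPM at 48 h. These are 768 counts against 2, a ratio of 446 (exact 95% interval 123 to 3687). Lefty2 lies 35918 bases before it on the same strand, at chr1:180893108-180899103, and went from 31.0 and 27.5 CPM to 0.363 and 0.0793 CPM (log2 fold change -7.04, SE 0.50, edgeR adjusted p = 3.59e-09). The 48 h libraries thus held next to no transcript of either gene. Both are close paralogs, so the split of reads between them is uncertain, while their sum is not.

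Hal, the first enzyme of histidine breakdown, fell from 11.0 and 14.0 CPM to 0.454 and 0.159 CPM (log2 fold change -5.34, SE 0.44). Itpr2, a receptor channel for inositol trisphosphate, fell from 43.3 and 29.5 CPM to 2.09 and 1.74 CPM (-4.25, SE 0.31). Mras, a Ras-related GTPase, fell from 81.4 and 84.6 CPM to 4.36 and 4.76 CPM (-4.18, SE 0.18). The UD and 48 h libraries did not overlap for any of them. Kirrel2 and Nphs1, which encode nephrin-family adhesion proteins and lie 624 bases apart on opposite strands of chromosome 7, fell together (log2 fold changes -4.71 and -3.84). Whether the counting used strand is not given in the sources used here, so reads at such close pairs may not be separable. Khdc3, of the oocyte and preimplantation subcortical complex, Gjb1, a gap junction protein, and Halr1, a long non-coding RNA beside the Hoxa cluster, completed the group with Inhbb and Cdx1, described with their pathways.

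**Figure D2:**
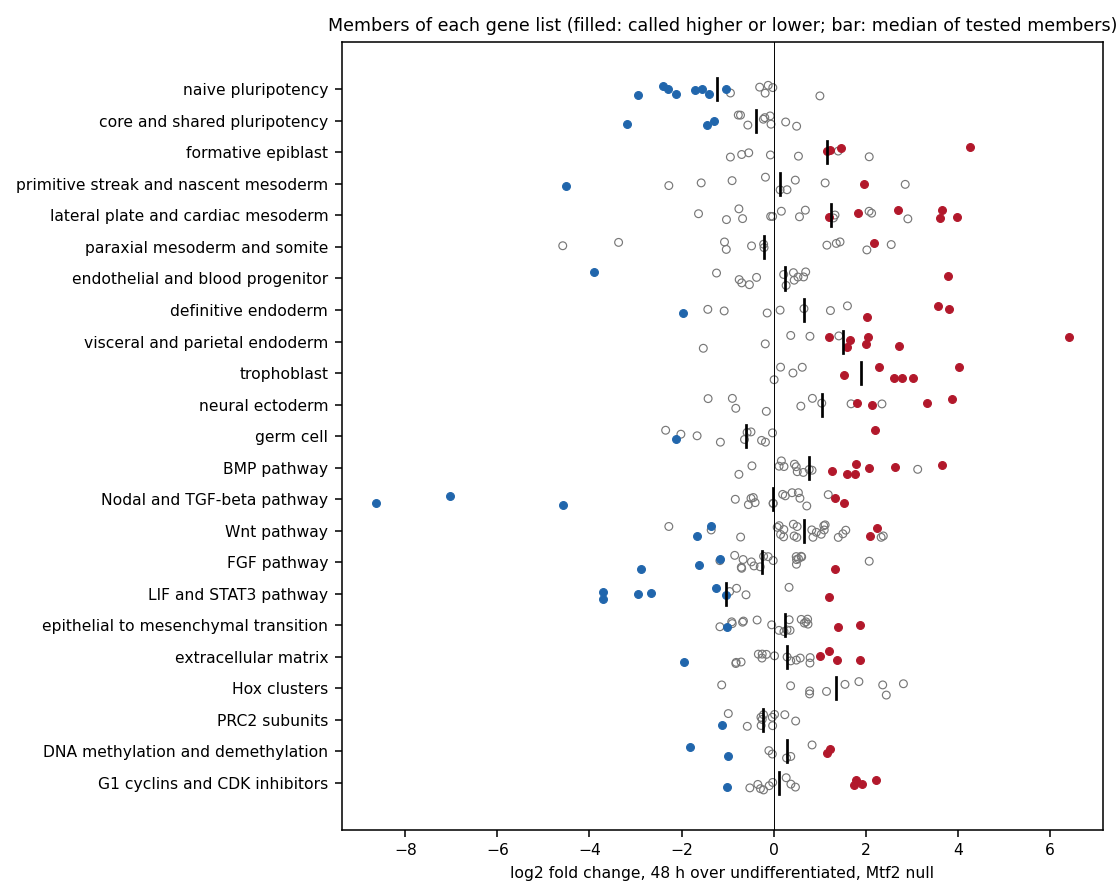
Each point is a tested member of 1 of 23 gene lists, placed by its log2 fold change at 48 h over undifferentiated in Mtf2 null cells. Filled points were called (red higher, blue lower), open points did not pass, and bars mark the median of the tested members. The naive pluripotency and LIF lists lie mainly to the left of 0 and the trophoblast list to the right, while the Nodal list holds the lowest points.

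In the Nodal and TGF-beta pathway, 3 of 19 tested members fell, 2 rose and the median log2 fold change was -0.01, beside 0.02 over all genes. The members that fell were ligands or inhibitors. Besides the Lefty pair, Inhbb, the beta B chain of activin and inhibin, fell from 84.8 and 83.9 CPM to 2.82 and 4.12 CPM (log2 fold change -4.59, SE 0.25). Inhbb had already dropped by 5 h (9.70 and 11.6 CPM) and continued to fall by 24 h (1.90 and 2.34 CPM). What lowered it was not tested. The ligand gene Nodal was at 59.3 and 71.2 CPM in UD and 43.8 and 45.3 CPM at 48 h and did not pass the test. Smad7, a feedback inhibitor of the pathway, was at 112 and 116 CPM in UD and 61.4 and 66.4 CPM at 48 h, below the fold limit (-0.83). Smad3, which carries the signal to the nucleus, rose from 9.90 and 7.88 CPM to 25.4 and 25.9 CPM (1.52, SE 0.15). The other member called higher, the receptor gene Tgfbr2 (1.33), lost the call without UD replicate 1 (edgeR adjusted p = 0.0201) and without 48 h replicate 1 (0.0128).

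Lefty2 was highest at 24 h, the end of the Activin A treatment, whereas no step of Lefty1 up to 24 h passed. Lefty2 was at 33.0 and 30.8 CPM at 5 h, rose to 186 and 163 CPM at 24 h under Activin A (log2 fold change 2.45 from 5 to 24 h) and was lost between 24 and 48 h (-9.61). Lefty1 was at 50.7 and 50.5 CPM at 5 h and at 54.1 and 57.5 CPM at 24 h, and fell by 9.19 on the log2 scale in the last step. WT cells had 391 and 368 CPM of Lefty2 at 24 h and 0.0654 and 0.326 CPM at 48 h, and 72.6 and 71.6 CPM of Lefty1 at 24 h and 0.0654 and 0 CPM at 48 h.

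In the BMP pathway, 7 of 19 tested members rose, no member fell and the median log2 fold change was 0.77. The rise was centred on the Id genes, targets whose products block basic helix-loop-helix factors. Id1 (chromosome 2) went from 36.3 and 52.4 CPM to 280 and 273 CPM (log2 fold change 2.64, SE 0.16, edgeR adjusted p = 5.43e-10). Id3 went from 10.2 and 11.6 CPM to 139 and 134 CPM (3.65, SE 0.17, edgeR adjusted p = 3.01e-11). Id2, whose promoter window is printed above, went from 47.4 and 46.9 CPM to 168 and 156 CPM (1.78, SE 0.15). The 48 h libraries stood clear of the UD libraries for all 3.

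Id4 rose from 6.26 and 5.08 CPM to 13.2 and 14.3 CPM (log2 fold change 1.27, SE 0.16), after a peak of 23.7 and 20.5 CPM at 24 h. Smad6, the inhibitor that BMP signalling induces, went from 3.27 and 1.87 CPM to 8.27 and 9.27 CPM (1.76, SE 0.25). It lost the call without UD replicate 2 (1.39, edgeR adjusted p = 0.0017). The ligand genes Bmp6 and Bmp7 were the other members called. Bmp6 went from 4.76 and 5.70 CPM to 15.8 and 15.9 CPM (1.60) and lost the call without UD replicate 1 (edgeR adjusted p = 0.00135), and Bmp7 (2.08) lost it without UD replicate 1 (0.00178) or 48 h replicate 1 (0.00106). The gene of the added ligand, Bmp4, was at 27.4 and 32.0 CPM in UD and 21.4 and 13.9 CPM at 48 h and did not pass.

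The Id genes did not follow 1 course through the stages. Id1 was at 39.3 and 43.7 CPM at 24 h, close to its UD level, and rose by 2.74 on the log2 scale from 24 to 48 h. Id2 fell to 16.8 and 20.5 CPM by 5 h (log2 fold change -1.33), stayed at 14.4 and 12.3 CPM at 24 h and rose by 3.60 in the last step. Id3 had risen by 5 h (54.2 and 56.9 CPM, 2.35) and rose again by 2.29 in the last step. BMP4 was present throughout, with Activin A until 24 h and with A-83-01 after it.

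**Figure D3:**
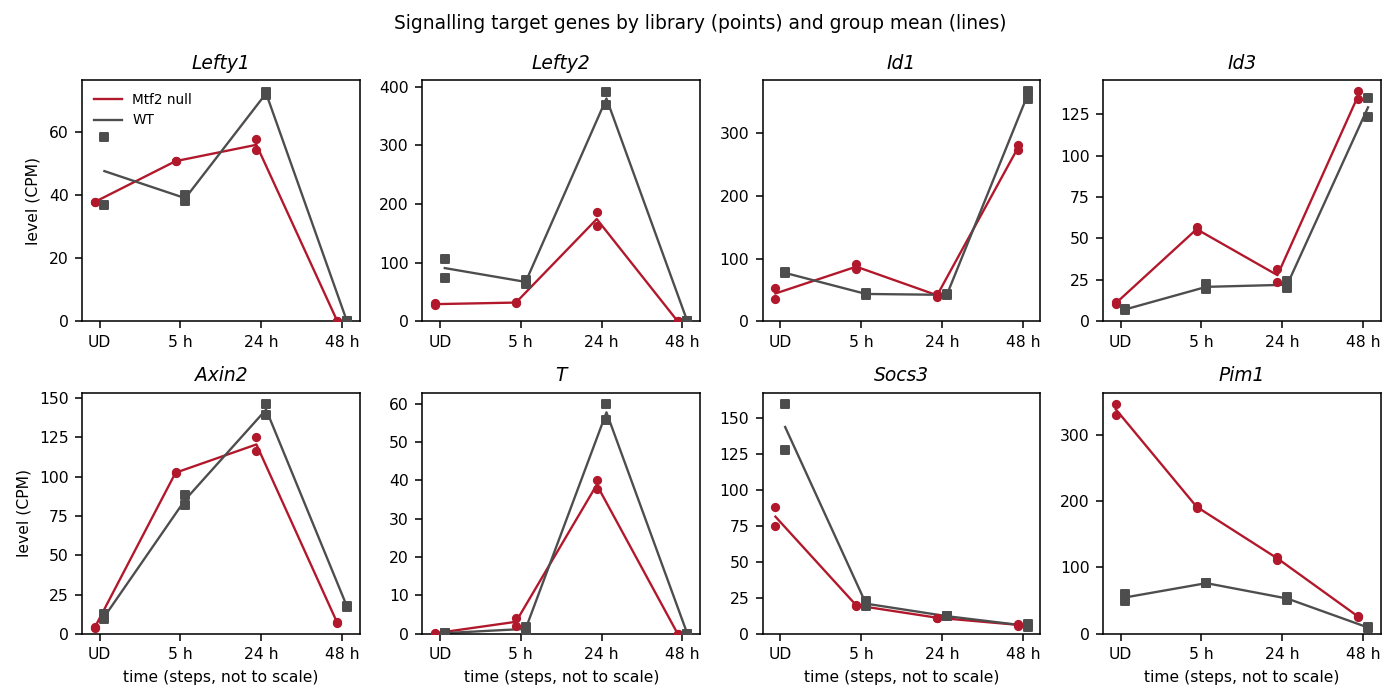
Levels (CPM) of 8 signalling target genes are plotted for each library (points) and as group means (lines) at UD, 5 h, 24 h and 48 h, for Mtf2 null (red) and WT (grey). In Mtf2 null cells Lefty1 and Lefty2 end near 0 at 48 h, Id1 and Id3 end at 273 to 280 and 134 to 139 CPM, Axin2 and T are highest at 24 h, and Socs3 and Pim1 are highest in UD.

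In the Wnt pathway the 48 h level showed little of what happened before it. Of 28 tested members, 2 rose and 2 fell between UD and 48 h, with a median log2 fold change of 0.67. From UD to 5 h, where the test called 6.06% of genes, 8 members rose and 1 fell, and from 24 to 48 h, where it called 3.41%, 3 rose and 11 fell. Axin2, the feedback inhibitor that reports on Wnt activity, was at 3.55 and 4.36 CPM in UD, 103 and 102 CPM at 5 h, 125 and 116 CPM at 24 h and 7.36 and 6.66 CPM at 48 h. It rose by 4.70 (SE 0.14) on the log2 scale in the first step and fell by 4.11 (SE 0.13) in the last, and its 48 h level did not pass against UD (0.83). Sp5, a zinc finger target of Wnt whose promoter window is printed above, went from 0.0934 and 0.415 CPM to 10.9 and 12.0 CPM at 5 h and ended at 0 and 0.0793 CPM. The same rise by 5 h and fall after 24 h was called for Cdx2 (3.85 and -3.54), Dkk1 (3.66 and -2.77) and Fzd10 (2.66 and -2.53).

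Sfrp1, a secreted Wnt antagonist, fell from 102 and 91.1 CPM in UD to 31.6 and 29.6 CPM at 48 h (log2 fold change -1.66, SE 0.15), and the receptor gene Fzd5 fell from 121 and 120 CPM to 46.3 and 48.1 CPM (-1.35). The members called higher were the ligand gene Wnt4 (2.24) and the ubiquitin ligase gene Rnf43 (2.09). Wnt4 lost the call without UD replicate 1 (edgeR adjusted p = 0.0014), UD replicate 2 (0.00392) or 48 h replicate 2 (0.00118), and Rnf43 lost it without any 1 of the 4 libraries (0.00228 to 0.0124).

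Of 11 tested primitive streak genes, 5 rose from UD to 5 h, 1 rose from 5 to 24 h and 5 fell from 24 to 48 h. T (Brachyury), the T-box factor of streak and nascent mesoderm, had 3 counts over both UD libraries and 1 over both 48 h libraries, with 2.14 and 4.12 CPM at 5 h and 40 and 37.6 CPM at 24 h between them. It rose by 4.34 (SE 0.69) on the log2 scale to 5 h and by 3.60 (SE 0.30) to 24 h, a step in which 5.73% of genes were called, and fell by 9.52 (SE 0.57) to 48 h. The first of these calls was lost without UD replicate 2 (edgeR adjusted p = 0.00215) or 5 h replicate 2 (0.00224). The summed level of the streak list was 19.0 and 17.6 CPM in UD, 79.8 and 84.4 CPM at 5 h, 134 and 137 CPM at 24 h and 24.7 and 24.3 CPM at 48 h. Between UD and 48 h 1 of its 11 tested members rose and 1 fell, and 8 listed genes were too low to test. Eomes, a T-box factor of streak and endoderm, was the member that rose, from 3.83 and 1.97 CPM to 11.4 and 11.4 CPM (1.96, SE 0.25), and was already at 12.2 and 11.2 CPM at 5 h. Cdx1, a homeobox target of Wnt, was the member that fell, from 5.70 and 6.43 CPM to 0.273 and 0.238 CPM (-4.52, SE 0.40), after 43.5 and 46.8 CPM at 24 h.

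The LIF and STAT3 pathway had the largest share of falling members among the signalling lists, with 6 of 11 tested members lower, 1 higher and a median log2 fold change of -1.04. Socs3, the feedback inhibitor whose promoter window with the STAT palindrome is printed above, fell from 75.0 and 87.9 CPM to 6.81 and 5.63 CPM (-3.71, SE 0.17, edgeR adjusted p = 2.51e-11). Most of that fall was made by 5 h (19.2 and 20.3 CPM, log2 fold change -2.04). Pim1, a kinase gene induced by STAT3, fell from 330 and 346 CPM to 26.4 and 25.2 CPM (-3.72, SE 0.14), but more slowly, with 193 and 190 CPM at 5 h and 116 and 111 CPM at 24 h. The UD and 48 h libraries did not overlap for either gene. Gbx2, a homeobox target of STAT3, fell from 22.9 and 26.5 CPM to 4.73 and 3.09 CPM (-2.67), and Pim3 fell by 1.25. The receptor gene Lifr (-0.81) and Stat3 itself (-0.96) stayed under the fold limit. The member called higher was the ligand gene Lif, which lost the call without UD replicate 1 (edgeR adjusted p = 0.00991), UD replicate 2 (0.00388) or 48 h replicate 2 (0.00893).

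Among naive pluripotency genes, 8 of 14 fell, no member rose and the median log2 fold change was -1.23. Klf4, a zinc finger factor of the naive state, fell from 336 and 338 CPM to 42.1 and 45.7 CPM (-2.94, SE 0.16), and Nanog fell from 479 and 491 CPM to 179 and 185 CPM (-1.41, SE 0.12). Nanog was at 166 and 158 CPM at 5 h and higher again, at 322 and 292 CPM, at 24 h. Esrrb fell by 1.72, Klf5 by 1.57, Nr0b1 by 2.41, Tcl1 by 2.29 and Prdm14 by 2.13. Zfp42 (Rex1), by contrast, was at 69.7 and 73.6 CPM in UD and 54.6 and 61.3 CPM at 48 h and did not pass, with UD levels below those of WT (408 and 380 CPM). The other member called, Tfcp2l1 (-1.04), lost the call without UD replicate 1 (edgeR adjusted p = 0.0026) or either 48 h replicate (0.00184 and 0.00161).

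Of the pluripotency genes shared by naive and later states 3 of 12 fell and no member rose, with a median of -0.39. Pou5f1 was at 798 and 964 CPM in UD and still at 530 and 504 CPM at 48 h (log2 fold change -0.77, edgeR adjusted p = 8.44e-04, under the fold limit). Sox2 was at 298 and 287 CPM and then 182 and 173 CPM (-0.72). Tdgf1, which encodes the Nodal co-receptor Cripto, fell from 974 and 1085 CPM to 103 and 122 CPM (-3.19, SE 0.19). Dppa2 fell by 1.29. Dppa5a, the other member called (-1.44), lost the call without UD replicate 2 (edgeR adjusted p = 0.00748) or either 48 h replicate (0.00516 and 0.00869).

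Of the formative epiblast list, 4 of 11 members rose, no member fell and the median was 1.15. Otx2 led it and rose in the last step, with 0.570 and 0.502 CPM at 24 h (log2 fold change 5.50 from 24 to 48 h). Dnmt3a and Dnmt3b, the de novo DNA methyltransferases, rose (log2 fold changes 1.22 and 1.15). Dnmt3b did so in 3 moves, from 173 and 194 CPM to 493 and 495 CPM at 5 h, back to 129 and 127 CPM at 24 h and up to 391 and 424 CPM at 48 h. Tet2, which oxidises 5-methylcytosine, fell from 428 and 366 CPM to 105 and 121 CPM (-1.82, SE 0.13). In the list of DNA methylation and demethylation genes 2 of 9 rose and 2 fell.

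Of the lateral plate and cardiac mesoderm list, 6 of 20 tested members rose, no member fell and the median log2 fold change was 1.25. Besides Hand1, Msx2, a homeobox target of BMP, rose from 0.747 and 1.14 CPM to 13.5 and 10.5 CPM (3.66, SE 0.30). Pdgfra, a growth factor receptor of mesoderm and of extraembryonic endoderm, rose from 11.2 and 15.2 CPM to 46.9 and 46.5 CPM (1.82, SE 0.21), while WT cells were at 1.77 and 2.56 CPM in UD and 1.83 and 1.22 CPM at 48 h. Gata4, shared by cardiac mesoderm and primitive endoderm, went from 30.4 and 34.4 CPM to 77.2 and 72.3 CPM (1.2) and lost the call without UD replicate 1 (1.12, edgeR adjusted p = 0.00144). Meis2 (2.69) and Irx3 (3.61) lost it without UD replicate 2 (edgeR adjusted p = 0.00139 and 0.00233). Gata6 was at 15.7 and 17.3 CPM in UD and 25.5 and 23.1 CPM at 48 h and did not pass. Thus several of the genes that rose are shared with extraembryonic tissues, while Mesp1, Hand2, Msgn1, Osr1 and Actc1 were without counts at 48 h. Of 13 tested paraxial mesoderm genes 1 rose (Lfng, 2.17) and no member fell. Of 14 tested endothelial and blood genes 1 fell and 1 rose, Gata2, from 1.59 and 1.87 CPM to 24.0 and 23.5 CPM (3.78, SE 0.40).

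In the visceral and parietal endoderm list 7 of 12 tested members rose, no member fell and the list had a median log2 fold change of 1.5. Cubn, the endocytic receptor cubilin, went from 176 and 206 CPM to 713 and 858 CPM (2.04, SE 0.16, edgeR adjusted p = 9.58e-09). Its adaptor Dab2 went from 42.0 and 44.9 CPM to 183 and 167 CPM (2.01, SE 0.13). Both genes had first gone down, to 67.2 and 65.5 CPM for Cubn and 11.9 and 10.8 CPM for Dab2 at 24 h, and rose by 3.56 and 3.95 on the log2 scale in the last step. In WT cells neither exceeded 17.0 CPM at UD or 48 h.

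Apob, the structural protein of lipoproteins, rose from 4.02 and 4.87 CPM to 30.1 and 28.9 CPM (log2 fold change 2.73). Col4a1 and Col4a2, the type IV collagen chains of basement membrane, rose from 489 and 633 CPM to 1274 and 1299 CPM (1.2, SE 0.15) and from 255 and 329 CPM to 751 and 754 CPM (1.37). They share a promoter region, and their annotated ends overlap by 22 bases on opposite strands. Sparc, a matrix glycoprotein of parietal endoderm, rose from 248 and 305 CPM to 924 and 832 CPM (1.67). Lama1, the laminin alpha 1 chain, was at 721 and 865 CPM in UD, 225 and 246 CPM at 24 h and 1019 and 1031 CPM at 48 h, and did not pass between UD and 48 h (0.37). Apoe was at 1188 and 1530 CPM and then 1347 and 1048 CPM and did not pass. Afp, a defining marker of later visceral endoderm, was at 0.182 and 0.238 CPM at 48 h, Apoa1 was at 0.545 and 0.317 CPM, and Cer1 had 0 counts.

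Of the definitive endoderm list, 3 of 11 tested members rose and 1 fell, with a median of 0.66. Hnf4a, a nuclear receptor of visceral endoderm and liver, rose from 0.934 and 1.14 CPM to 13.0 and 16.2 CPM (log2 fold change 3.81, SE 0.37). Prdm1 fell from 37.4 and 28.9 CPM to 7.45 and 9.51 CPM (-1.96). Sox17 and Foxa2, which define the list, did not pass. Of the trophoblast list 6 of 10 tested members rose, no member fell and the median was 1.91. The keratin genes Krt8 and Krt18, intermediate filaments of simple epithelia, rose from 27.6 and 39.2 CPM to 173 and 152 CPM (2.28) and from 17.4 and 28 CPM to 145 and 131 CPM (2.61). Elf5 and Tfap2c, factors that define trophoblast stem cells, did not pass. The summed trophoblast list was at 147 and 170 CPM in UD and at 500 and 438 CPM at 48 h. In WT it went from 73.4 and 62.4 CPM in UD to 143 and 212 CPM at 48 h, with 5 members called higher. The change differed between the lines by the test for 0 members of this list.

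**Figure D4:**
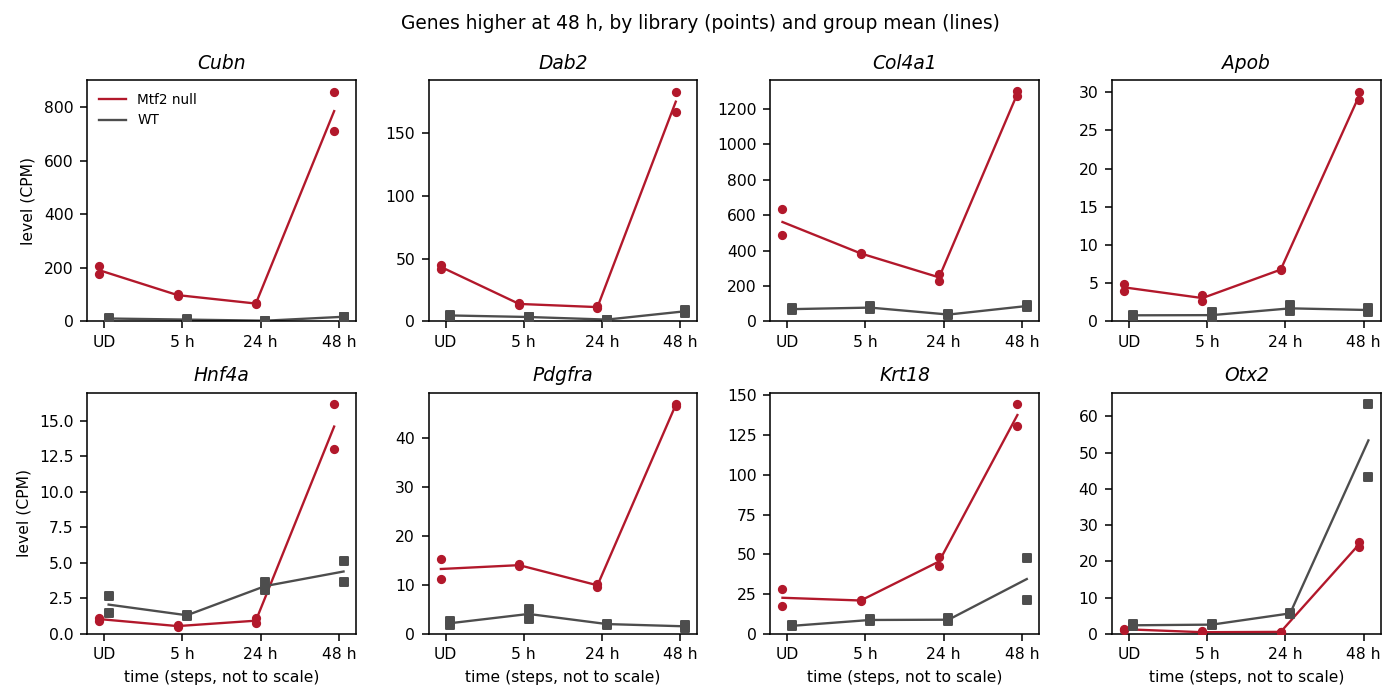
Levels (CPM) of 8 genes called higher at 48 h are plotted for each library (points) and as group means (lines) at UD, 5 h, 24 h and 48 h, for Mtf2 null (red) and WT (grey). Cubn, Dab2 and Col4a1 fall to 24 h and reach 713 to 858, 167 to 183 and 1274 to 1299 CPM at 48 h in Mtf2 null cells, whereas Otx2 ends higher in WT.

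Among neural ectoderm genes 4 of 13 tested rose and no member fell, with a median of 1.04. Zic2 and Zic5 were among them, Zic5 going from 1.03 and 1.56 CPM to 12.8 and 13.2 CPM (log2 fold change 3.33), and Sox21 rose (2.13). Sox1 and Pax6, which define neural progenitors, did not pass. Of 12 germ cell genes 1 rose and 1 fell. The one that rose was Rhox5, an X-linked homeobox gene kept silent by DNA methylation in epiblast, which went from 6.72 and 12.7 CPM to 44.2 and 44.9 CPM (2.21, SE 0.18). Of 39 Hox genes 29 were too low to test and no call was made among the other 10 (median 1.35).

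Of 12 genes for PRC2 subunits 1 fell and no member rose, with a median of -0.23. Eed, which reads the mark that PRC2 writes, fell from 234 and 207 CPM to 97.0 and 104 CPM (log2 fold change -1.13). Jarid2, the defining subunit of the PRC2.2 form, was at 1048 and 999.6 CPM in UD and 512 and 522 CPM at 48 h, just under the fold limit (-0.99). Of 14 tested PRC2 targets that the study singled out, 5 rose and no member fell, with a median of 1.23. In WT cells 8 of them rose and 1 fell over the same interval, and the change differed between the lines for 1. Since the study chose them from its own results, their direction is not independent evidence.

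In the FGF pathway 1 of 22 tested members rose and 3 fell, with a median of -0.26. Dusp4, a phosphatase that ERK signalling induces, rose (log2 fold change 1.34), while the ligand gene Fgf17 (-1.62) and the inhibitor gene Il17rd (-1.16) fell. In the list of epithelial to mesenchymal transition genes 2 of 20 rose and 1 fell, and the tight junction gene Cldn6 rose from 40.1 and 46.6 CPM to 177 and 139 CPM (1.87). Cdh1, E-cadherin, was at 478 and 490 CPM in UD and 571 and 559 CPM at 48 h and did not pass. In the extracellular matrix list 4 of 19 tested members rose and 1 fell, with Col5a1 (1.87) beside the collagens above and Nid1 (-1.95) as the fall.

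Of 14 G1 cyclin and CDK inhibitor genes, 4 rose and 1 fell. Cdkn1a (p21) rose from 25.2 and 31.6 CPM to 107 and 84.6 CPM (log2 fold change 1.75), and Ccnd2 rose (1.78). The level of Cdkn1a at 24 h (118 and 125 CPM) was already above its 48 h level. Cdkn1a and Phlda3 (1.25) were the only p53 targets called, of 14. The remaining lists held few calls. In glycolysis 1 of 15 rose and 2 fell, among them Pdk1, which restrains pyruvate oxidation, from 257 and 253 CPM to 104 and 103 CPM (-1.31). Of 11 tested immediate early genes 2 rose, and of 12 tested contractile and cytoskeletal genes 3 rose, including Cnn2 (1.46) and Tpm1 (1.11).

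The calls of the main comparison can be placed in the 3 steps between the sampled times. From UD to 5 h 398 genes rose and 714 fell, but without the fold limit the balance turned (1325 higher and 1133 lower). From 5 to 24 h 811 rose and 241 fell, and from 24 to 48 h 421 rose and 205 fell. Of the 11 tested LIF and STAT3 genes 4 fell in the first step, and of the 14 naive genes 5 did. In the last step 9 of 12 tested visceral and parietal endoderm genes and 6 of 10 tested trophoblast genes rose, and 0 fell in either list. Neighbouring steps share the libraries between them, so the steps are not independent of each other.

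The same interval in the E14 WT cells served as the reference for how much of this change is also found in that line. Genotype and line of origin cannot be told apart in this comparison. WT cells gave 1022 higher and 565 lower genes (8.64% of genes tested, 5.57% and 3.08% by direction). Both lines called 309 genes higher, 42.6% of the Mtf2 null and 30.2% of the WT list, and 172 lower, 40.3% and 30.4%. A call in 1 line and not in the other is no difference by itself. Of the 417 genes called higher in Mtf2 null cells only, 67 also passed the test of the difference between the lines, and of the 255 called lower in Mtf2 null cells only, 47 did.

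Tested directly, the change differed between the lines for 497 genes (2.71%), with 193 (1.05%) where the Mtf2 null change was above the WT change and 304 (1.66%) where it was below. This count rested strongly on single libraries: it was 211 without Mtf2 null UD replicate 1, 225 without Mtf2 null 48 h replicate 1, 317 without Mtf2 null 48 h replicate 2 and 317 without WT UD replicate 2. Without the last, the balance also turned, to 188 genes above and 129 below. Of the 304 genes, 293 stood above WT already in undifferentiated Mtf2 null cells, and for 265 the gap between the lines was larger in UD than at 48 h. Of the 193 genes, 159 stood below WT in UD. The UD values were part of the contrast that selected these genes, so such counts were in part fixed in advance. They describe the genes called, carry no test, and were not computed over all genes tested.

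Itpr2 is an example of a gene whose Mtf2 null change was below the WT change. It was at 43.3 and 29.5 CPM in Mtf2 null UD cells against 1.28 and 1.45 CPM in WT, and at 2.09 and 1.74 CPM against 2.42 and 3.59 CPM at 48 h (difference in log2 fold change -5.36, SE 0.47, edgeR adjusted p = 5.03e-07). The epithelial splicing factor gene Esrp1 was at 64.0 and 60.2 CPM and then 65.1 and 69.3 CPM in Mtf2 null cells, and went from 5.52 and 5.20 CPM to 26.9 and 28.1 CPM in WT (difference -2.25). Grhl2, an epithelial transcription factor, did the same, at 66.8 and 65.9 CPM and then 89.3 and 80.5 CPM against a WT course from 8.38 and 6.99 CPM to 46.9 and 35.4 CPM (-2.07). Their Mtf2 null levels were above both WT levels at either time. Klf4 started from a higher UD level in Mtf2 null cells, while WT cells were at 171 and 120 CPM in UD and 57.9 and 66 CPM at 48 h (-1.71).

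For other genes the Mtf2 null change was above the WT change. Loxl2, a lysyl oxidase that cross-links collagen, went from 39.0 and 48.4 CPM to 95 and 116 CPM in Mtf2 null cells and from 86.8 and 64.7 CPM to 11.7 and 9.30 CPM in WT (difference 4.12, SE 0.21, edgeR adjusted p = 6.86e-10). Lama1 was high in both Mtf2 null groups, as given above, and went from 204 and 167 CPM to 59.4 and 70.3 CPM in WT (1.89). Rhox5 rose in Mtf2 null cells, while WT cells were at 23.8 and 25.6 CPM and then 15.4 and 15.7 CPM (2.88). Zic5 was low in Mtf2 null UD cells and already at 20.3 and 16.0 CPM in WT UD cells, with 27.8 and 26.6 CPM at 48 h (2.75). In the glycolysis list 4 of 15 genes had a Mtf2 null change above the WT change, among them Tpi1, at 127 and 151 CPM and then 136 and 141 CPM in Mtf2 null cells against 408 and 376 CPM and then 90.3 and 81.7 CPM in WT (2.18). By contrast the difference for Lefty1, Lefty2, Id1, Id3 and Socs3 did not pass, which does not show that the lines were alike. Other signalling genes did pass, among them Id2, Id4, Bmp7, Smad3, Fzd10, Etv4, Pim1 and Gbx2. Each of these lost the call under some alternative. The BMP and LIF lists each had 1 member with a change above the WT change and 2 below. The Nodal, Wnt and FGF lists each had 1 above and 0 below.

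**Figure D5:**
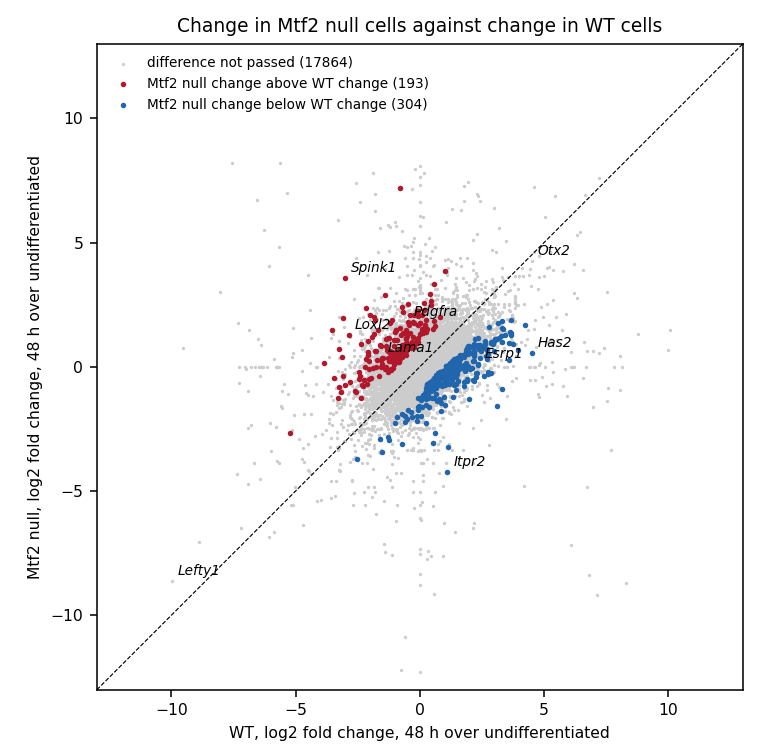
Each point is 1 of the genes tested, placed by its log2 fold change from undifferentiated to 48 h in WT (horizontal) and in Mtf2 null cells (vertical), with the dashed line where both are equal. Genes whose difference passed the test are coloured, 193 above the line (red) and 304 below it (blue). Lefty1 lies far down near the line, Itpr2 below it and Loxl2 and Spink1 above it.

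The endoderm arm of the same Mtf2 null line asked which of these changes differed between the arms. The arms are separate series of libraries, so medium and series cannot be told apart. Its cells received Activin A, CHIR99021 and FGF2 without BMP4 and then Activin A with DM3189, a BMP receptor inhibitor. The arms thus differed in which of the BMP and Activin signals was blocked at the end. For the first 24 h the methods also give a lower dose of CHIR99021 and a different dose of Activin A than in the mesoderm arm. The change from UD to 48 h differed between the arms for 121 of 19601 genes (0.617%), 42 (0.214%) with the mesoderm change above and 79 (0.403%) with it below. In a fit of both series together, Id1 was at 284 and 276 CPM at 48 h of mesoderm conditions against 3.86 and 2.74 CPM at 48 h of endoderm conditions (difference in log2 fold change 6.55, SE 0.32, edgeR adjusted p = 1.37e-15). Id3 was at 141 and 135 CPM against 6.55 and 8.71 CPM (4.30), and Id2 at 171 and 158 CPM against 26.9 and 31.8 CPM (2.71). The Lefty genes went the other way, with 139 and 95.6 CPM of Lefty1 and 191 and 144 CPM of Lefty2 at 48 h of endoderm conditions against less than 1 CPM (-10.44 and -9.58). The UD levels of these genes in both arms were close, as with 36.7 and 52.9 CPM against 41.4 and 57.7 CPM for Id1.

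Within the lists, 5 BMP members had a mesoderm change above the endoderm change and no member below, and 2 Nodal and 2 Wnt members had one below. Bmp4 was at 21.8 and 14.0 CPM against 2.04 and 1.65 CPM at 48 h (difference 3.22), Gata2 at 24.3 and 23.7 CPM against 1.67 and 1.24 CPM (4.38), and Sfrp1 at 32.1 and 29.8 CPM against 132 and 133 CPM (-2.19). Pga5, a pepsinogen gene, was at 7.47 and 9.36 CPM against 366 and 313 CPM (-5.36, SE 0.27). Several of the rising genes gave no call between the arms. Cubn reached 1237 and 1219 CPM in the endoderm arm (difference -0.71, edgeR adjusted p = 0.0746) and Hnf4a 18.9 and 14.8 CPM (-0.20, 0.971). Krt18 reached 177 and 126 CPM (-0.19, edgeR adjusted p = 0.93) and Otx2 12.7 and 17.4 CPM (0.86, 0.552). The fall of Socs3 did not differ by the test either (0.64, edgeR adjusted p = 0.344). Same-numbered UD libraries of the 2 series deviated together (r across genes 0.172 for Mtf2 null, 0.205 for WT and 0.378 for Jarid2 null), and the fit treats them as separate libraries. Whether they share a culture was not tested.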

How the data were processed

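Bulk RNA-seq was made from rRNA-depleted total RNA with paired-end reads of 75 bases. The authors deposited 1 table of Salmon estimated counts per gene for each arm, against GRCm38 (mm10), and the submitters' processing notes also name Bowtie2 and DESeq2. Of the values, 74.9% were whole, and all were rounded before use. The mesoderm table lists 53697 genes, of which 18361 passed the low-count filter (filterByExpr, minimum count 10, minimum total 15).

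The main test was edgeR 4.0.16 (quasi-likelihood, TMM scaling, R 4.3.3) on all 24 mesoderm libraries with 1 mean per genotype and time. The SE is the size of the log2 fold change divided by the square root of F. Adjustment was by Benjamini and Hochberg over all genes tested. The difference between arms was fitted on the 48 libraries of both tables. Alternatives were DESeq2 1.42.0, RLE size factors, no filter, no fold limit, the compared libraries alone, the replicate number as a block and each library left out. The code was tested on simulated data.

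Named genes were the 12 largest called changes in each direction the same way in every pair of libraries and with a mean of 5 CPM or more in the higher group, the 6 largest differences in each direction, and members of 28 gene lists (the largest called changes and members that define a list), without predicted genes. Other list members were named after their values were seen. The comparison and the lists were chosen with earlier results of these data known. RefSeq promoter windows were used for Socs3, Sp5 and Id2. Lefty1, Lefty2, Id1 and Hand1 have none here. Intervals of count ratios cover counting error only.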

Additional observations from a re-analysis of the deposited data

Results flagged for a closer look

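All results in this paragraph and the next were picked out because the change from undifferentiated to 48 h differed between 2 groups in edgeR's test of the difference itself. Between Mtf2 null and WT cells 497 genes passed, and the values are differences in log2 fold change, Mtf2 null minus WT. Where the difference was positive, the largest were Eno1b (7.98), Spink1 (6.57), Pou2f3 (5.01), Cbln1 (4.51), Loxl2 (4.12) and Kcng1 (4.09). Spink1, a trypsin inhibitor of secretory epithelia, was at 1.77 and 2.28 CPM and then 22.6 and 25.8 CPM in Mtf2 null cells, and at 2.86 and 3.07 CPM and then 0.392 and 0.326 CPM in WT. Eno1b had 0 counts in Mtf2 null UD cells and 37 at 48 h, while WT cells were at 1264 and 947 CPM in UD, and it is a close copy of Eno1, so its reads are uncertain. Where it was negative, the largest were Itpr2 (-5.36), Has2 (-3.94), Foxi3 (-3.32), Chac1 (-3.30), Tmcc3 (-3.28) and Adgrd1 (-3.28). Has2, a hyaluronan synthase, was at 3.55 and 2.07 CPM and then 4.00 and 4.44 CPM in Mtf2 null cells, and went from 0.394 and 0.256 CPM to 6.93 and 8.24 CPM in WT. Members of the gene lists were Rhox5 (2.88), Zic5 (2.75), Lama1 (1.89), Tpi1 (2.18), Ier3 (3.10), Slc2a1 (1.49), Klf4 (-1.71), Id4 (-2.17), Esrp1 (-2.25), Grhl2 (-2.07), Perp (-1.82) and Aen (-1.21). Calls were lost without single Mtf2 null libraries for Eno1b (edgeR adjusted p up to 0.00541, without 48 h replicate 2), Cbln1 (up to 0.0051, without 48 h replicate 2) and Pou2f3 (0.0035, without 48 h replicate 1). Foxi3 lost the call without WT UD replicate 2 (0.004) and without 3 of the Mtf2 null libraries (up to 0.00153), and Adgrd1 without 5 of the 8 libraries compared (up to 0.00396, without Mtf2 null 48 h replicate 1). Fitted on the compared libraries alone, Eno1b (0.00246), Pou2f3 (0.00236), Cbln1 (0.00426), Adgrd1 (0.00484), Id4 (0.0022), Aen (0.00184) and Slc2a1 (0.0014) lost the call (edgeR adjusted p).

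Between the mesoderm and endoderm arms of Mtf2 null cells 121 genes passed, and the values are mesoderm minus endoderm. The largest positive differences were Id1 (6.55), Spink1 (5.63), Gata2 (4.38), Id3 (4.30), H19 (3.65) and Bmp4 (3.22), and the largest negative ones were Lefty1 (-10.44), Lefty2 (-9.58), Pga5 (-5.36), Trim67 (-4.79), Irs4 (-3.72) and Nt5e (-3.56). H19, an imprinted non-coding RNA of extraembryonic and mesodermal tissues, was at 62.1 and 47.5 CPM at 48 h of mesoderm conditions against 6.47 and 2.26 CPM. Members of the gene lists were Id2 (2.71), Spry4 (1.92), Pfkp (1.61), Tet2 (1.16), Prdm1 (-2.17), Sfrp1 (-2.19) and Il17rd (-1.45). H19 lost the call without 6 of the 8 libraries compared (edgeR adjusted p up to 0.00214, without endoderm 48 h replicate 2), Trim67 without 7 of them (up to 0.00926, without mesoderm 48 h replicate 2) and Irs4 without mesoderm UD replicate 2 (0.00221). Fitted on the compared libraries alone, H19 (0.00527), Irs4 (0.00677), Nt5e (0.005), Pfkp (0.00374), Tet2 (0.00623) and Prdm1 (0.00104) lost the call (edgeR adjusted p). Lefty1 had 2 counts over both 48 h mesoderm libraries and Trim67 under 0.2 CPM, so the size of their difference is imprecise.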

How the results depend on the processing

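The direction under the alternatives was followed only for named or listed genes that were called in a comparison, and none of these changed direction. Named genes that did not pass were not followed. The balance of calls did turn from UD to 5 h without a fold limit (1325 higher, 1133 lower) and for Mtf2 null against WT without WT UD replicate 2 (188 above, 129 below), and between the arms it was even with the compared libraries alone (15 and 15). For Mtf2 null cells at 48 h against undifferentiated, DESeq2 called 1108 genes (1047 of them also in the main 1153), RLE size factors 1134, no filter 1547, the compared libraries alone 951 and the replicate number as a block 1113. Without a fold limit the counts were 1950 there, 2812 in WT, 2458 from UD to 5 h, 2142 from 5 to 24 h and 967 from 24 to 48 h. Without the low-count filter 1035 genes differed between Mtf2 null and WT, 966 were called from 24 to 48 h and 272 differed between the arms. With the compared libraries alone the counts were 109 for Mtf2 null against WT, 882 in WT, 647 from UD to 5 h and 30 between the arms. Leaving out 1 library at a time gave 684 to 865 genes for the main comparison, 211 to 494 for Mtf2 null against WT, 1058 to 1610 in WT, 683 to 868 from UD to 5 h, 580 to 706 from 5 to 24 h, 377 to 457 from 24 to 48 h and 75 to 95 between the arms. The lowest counts came without Mtf2 null UD replicate 1 for the main comparison and for Mtf2 null against WT, 5 h replicate 2 in both steps that use it, 24 h replicate 1 from 24 to 48 h and endoderm UD replicate 1 between the arms. The lone library left in a group was assumed to vary like the other groups. Same-numbered Mtf2 null UD and 48 h libraries did not deviate together (r -0.0855), so the numbers are not taken as pairs, and with the block 463 genes differed from WT and 123 between the arms. Of 111 genes named or called in the lists for the main comparison, 28 lost the call under at least 1 alternative. List counts moved with the fold limit and single libraries, with 0 to 5 Wnt members higher, 2 to 5 FGF members and 5 to 9 LIF members lower. Where a count moved, the cause was not tested beyond what the setting itself removes. With 2 libraries in each group, genes under 1 CPM rest on few reads.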
